A study of Mus musculus with 6 samples.

Results

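The genes described here are 45 genes of mitosis, the kinetochore and cytokinesis, out of 28786 gene names on the array, and they were measured in hearts of sham-operated and adrenalectomized mice. They were chosen by name and with their difference between the groups already known, so the values below describe that difference and do not test it. Every probe of the array that carried a member's name or RefSeq accession was used, which gave 76 probes. Cdk1 was read under its older name Cdc2a, and Ndc80, Nuf2, Spc24 and Spc25 were matched by accession from the older names Kntc2, Cdca1, Spbc24 and Spbc25.

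RNA came from hearts of 6 male C57BL/6 mice, a common inbred strain, with 1 single-colour Agilent array of 60-base probes for each heart. The 3 mice of the first group had a sham operation and the 3 of the second had their adrenal glands removed, which takes away the source of corticosterone, aldosterone and the adrenaline of the medulla. Surgery was at 1 month of age and hearts were taken 6 months afterwards, although another label gives 6 months as the age of the mice. No allele, hormone replacement or other agent is named for either group, and the design calls the mice of a group biological replicates.

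A cell enters mitosis when cyclin B bound to Cdk1 becomes active. Chromosomes are then condensed, their kinetochores are attached to spindle microtubules, and a checkpoint holds back the anaphase-promoting complex, a ubiquitin ligase, until all chromosomes are attached. Most genes of these steps are transcribed mainly in G2 and M phase. They are regulated through the DREAM and MuvB complexes that bind the CHR element of their promoters and through NF-Y at CCAAT boxes. Cardiomyocytes of adult mice rarely divide, while endothelial, stromal and blood-derived cells of the heart can.

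Between 57.7% and 60.2% of spots on the sham arrays, and 60.5% to 66.8% on the adrenalectomized ones, were well above background. Levels are log2 signals relative to the 75th percentile of the same array, so that a level of 0 lies at that percentile, and differences are adrenalectomized minus sham on this log2 scale. All 8 cardiomyocyte markers were well above background on all 6 arrays. Slide 1 carried the sham hearts together with adrenalectomized replicate 1, while the other adrenalectomized hearts were hybridised on slide 2. A difference within slide 1 therefore rests on 1 adrenalectomized heart. In heart RNA, fewer cells of a type and less RNA per cell cannot be told apart.

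Mitosis genes were mostly higher in adrenalectomized hearts. Of the 40 members with a probe that could be tested, 37 had a higher and 3 a lower value, with a median difference of 0.75, or 1.68-fold. Over all 16948 genes tested the median was 0.03 and 56.6% had a higher value. The cyclin gene Ccnb1 and the cohesion gene Cdca5 rose at a limma adjusted p of 0.0487 and none fell, where 0.0295% of all genes tested rose and 0.0118% fell. At an unadjusted limma p under 0.05, 28 members were higher and 0 were lower, where 6.27% and 5.99% of all genes were. In 29 members all 3 adrenalectomized arrays lay above all 3 sham arrays, which held for 10.3% of all genes, and in 0 members they lay below, against 7.89%. Fitted differences of 1 or more were found in 10 members, and in 1.31% of all genes. Of the 10, 8 were detected in sham hearts, while Ccnb1 and Nek2 were not and have only the bounds given below. These counts come from the contrast that chose the members and are given as a description.

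Both calls were close to the threshold. With any 1 of the 6 arrays left out, with slide as a block, or with a probe required to be well above background on all 6 arrays, 0 members passed, while the median over the tested members remained between 0.70 and 0.80. Within slide 1 the median was 0.70 and 35 of the 40 members were higher. A variance trend with robust estimation called 4 members higher and 0 lower, where 0.0354% and 0.0413% of all genes were called. Weighting the arrays by their quality called 23 members higher and 0 lower, where 0.702% and 1.0% of all genes were called.

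The median distance of the 40 members from their sham mean was 0.03, -0.01 and -0.02 on the sham arrays. It was 0.70, 0.71 and 0.86 on adrenalectomized replicates 1, 2 and 3. All 3 adrenalectomized hearts stood above all 3 sham hearts in this median, which describes members chosen with that difference known. Over the 32 members well above background on all 6 arrays it was 0.65, 0.68 and 0.79 on the adrenalectomized arrays. Replicate 3 held the highest adrenalectomized value in 25 of the 40 members and replicate 1 the lowest in 22. Over all genes tested the same distances lay between -0.07 and 0.05.

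**Figure D1:**
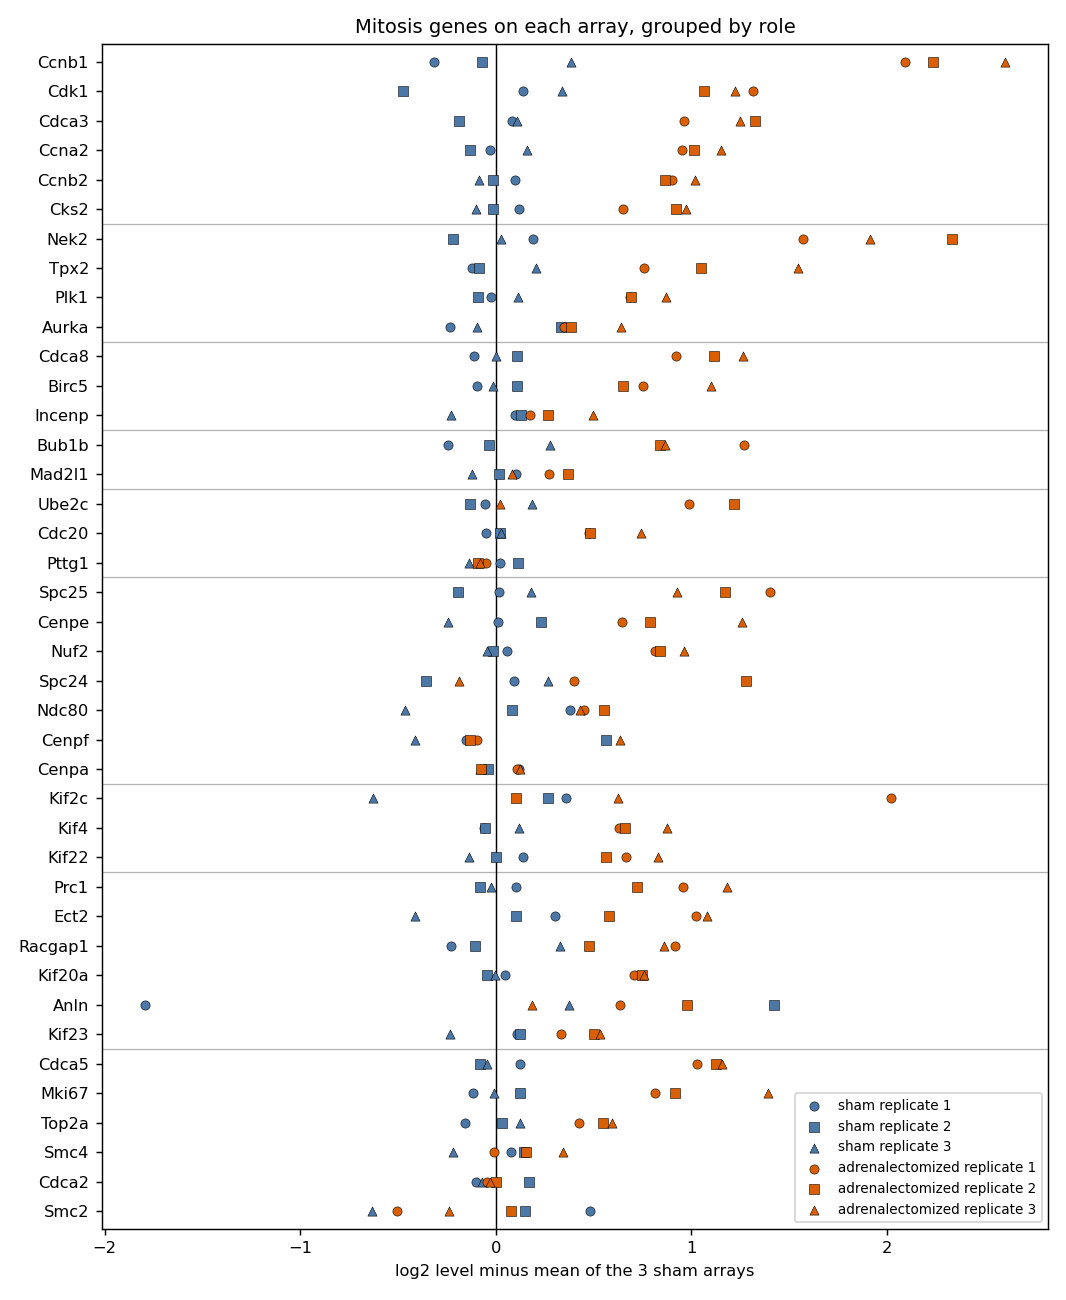
Log2 level of each of the 40 tested mitosis genes on each of the 6 arrays (x axis, level minus the mean of the 3 sham arrays; y axis, genes grouped by role in the order of the text, with grey lines between roles). Circles, squares and triangles are replicates 1, 2 and 3, blue for sham and orange for adrenalectomized; in 29 genes all orange symbols lie to the right of all blue ones, and Anln has 1 sham array far to the left.

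Detection also leaned towards the adrenalectomized arrays. Adrenalectomized replicates 2 and 3, on slide 2, had a median local background of 49 and 49.5, against 69 to 71 on the arrays of slide 1. They had 66.8% and 63.2% of spots well above background, against 60.5% on adrenalectomized replicate 1. A difference in detection between the groups therefore cannot be separated from one between the slides. Of the 76 probes, 39 were well above background on all 6 arrays, 15 on none and 22 on some, and 20 of those 22 were detected on more adrenalectomized than sham arrays, with 1 the other way and 1 equal. That is 90.9% of the partly detected probes of members, where 68.7% of the 7187 partly detected probes of the whole array were also detected on more adrenalectomized arrays. A probe entered the test when either group had all 3 of its arrays well above background, so a gene could enter through the group in which it was high. Of the 40 members tested, 32 were well above background on all 6 arrays, and their median difference was 0.73 with 29 higher. The other 8 were well above background on all 3 adrenalectomized arrays and on fewer sham arrays: Cdk1, Spc25, Kif2c and Anln on 2, Ect2 and Racgap1 on 1, and Ccnb1 and Nek2 on 0.

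Promoters of 7 members are shown to compare how the elements known from G2 and M genes are arranged in them, from several elements to none. RefSeq promoter windows (build GRCm38.p6, 250 bases before to 50 after each start) were given for 36 of the 45 members. Each line below shows 140 bases before to 30 after the start, 5′ to 3′ on the strand of the gene. Capitals mark the CHR core TTTGAA, the CCAAT box and an E2F site, each on either strand, so that TTCAAA and ATTGG are the same elements read on the other strand. The E2F site was searched as TTTGGCGC, TTTCGCGC, TTTCCCGC or TTTGCCGC. The windows are those of Ccnb1 at chr13:100786457-100786626 (minus strand), Ccnb2 at chr9:70421525-70421694 (minus), Cdk1 at chr10:69352883-69353052 (minus), Cdca8 at chr4:124936888-124937057 (minus), Cdc20 at chr4:118437314-118437483 (minus), Cdca5 at chr19:6084957-6085126 (plus) and Nuf2 at chr1:169531435-169531604 (minus).
Ccnb1: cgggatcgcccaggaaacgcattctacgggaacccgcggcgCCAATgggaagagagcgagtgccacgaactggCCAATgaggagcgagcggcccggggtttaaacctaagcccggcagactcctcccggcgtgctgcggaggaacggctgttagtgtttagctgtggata
Ccnb2: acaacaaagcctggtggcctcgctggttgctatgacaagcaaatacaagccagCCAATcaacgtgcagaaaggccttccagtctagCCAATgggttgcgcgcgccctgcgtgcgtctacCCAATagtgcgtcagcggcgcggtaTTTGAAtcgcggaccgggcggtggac
Cdk1: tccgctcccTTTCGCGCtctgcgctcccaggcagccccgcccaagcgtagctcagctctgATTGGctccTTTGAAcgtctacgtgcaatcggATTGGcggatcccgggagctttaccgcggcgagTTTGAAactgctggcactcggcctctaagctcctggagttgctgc
Cdca8: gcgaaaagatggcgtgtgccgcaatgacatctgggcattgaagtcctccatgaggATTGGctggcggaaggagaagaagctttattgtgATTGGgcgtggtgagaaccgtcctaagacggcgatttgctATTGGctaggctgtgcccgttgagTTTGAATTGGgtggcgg
Cdc20: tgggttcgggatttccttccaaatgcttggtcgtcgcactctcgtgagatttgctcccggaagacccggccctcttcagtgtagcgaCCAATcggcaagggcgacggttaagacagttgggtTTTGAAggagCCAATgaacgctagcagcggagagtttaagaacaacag
Cdca5: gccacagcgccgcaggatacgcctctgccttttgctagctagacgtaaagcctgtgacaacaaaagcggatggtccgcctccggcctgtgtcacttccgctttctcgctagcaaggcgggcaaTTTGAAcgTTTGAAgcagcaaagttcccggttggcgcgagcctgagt
Nuf2: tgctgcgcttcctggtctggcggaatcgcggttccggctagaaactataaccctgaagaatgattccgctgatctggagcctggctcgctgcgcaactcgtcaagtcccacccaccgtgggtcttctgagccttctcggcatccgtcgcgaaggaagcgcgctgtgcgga
Ccnb2 and Cdc20 hold CCAAT boxes and the CHR core close to the start. In Cdk1, 2 CHR cores alternate with CCAAT boxes behind the only E2F match among the members. Cdca8 has a CHR core that shares 1 base with a CCAAT box on the other strand. Cdca5 has 2 CHR cores and no CCAAT box, Ccnb1 has 2 CCAAT boxes and no CHR core, and Nuf2 has none of these letters in its window.

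The CHR core TTTGAA was present in 27 of the 36 members with a window, or 75%, against 20.2% of 27025 genes with one. A CCAAT box was present in 28, or 77.8%, against 41.1%. The CHR variant TTCGAA was found in 3 members, or 8.33%, against 1.80%, and an E2F site in 1, or 2.78%, against 2.60%. The members' windows had a median GC content of 58.8%, against 52.7% for all windows. CHR cores sat near the start: 71.1% of the 38 windows of members had one that began within 50 bases on either side, against 4.94% of all windows, a range that was chosen after the positions had been seen. CCAAT boxes began between 100 and 51 bases before the start in 50% of the members' windows and within the last 50 bases before it in as many. A match to these letters is a description of the window and not a binding site. The 25 tested members with a CHR core had a median difference of 0.75 and the 8 without one 0.86.

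**Figure D2:**
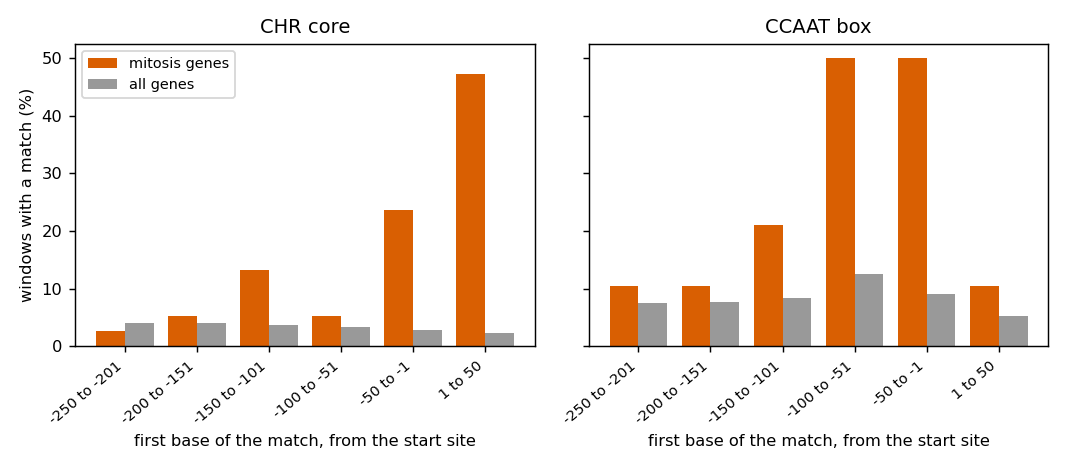
Share of RefSeq promoter windows (y axis, percent) with a CHR core (left) or a CCAAT box (right) whose first base lies in each 50-base step from the start site (x axis, bases), orange for the 38 windows of mitosis genes and grey for all windows. The CHR core is most frequent in the 50 bases after the start, in 47.4% of the members' windows against 2.25% of all, and the CCAAT box in the 100 bases before it.

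Cyclins, Cdk1 and their regulators stood highest of the roles. All 6 tested genes of 7 had non-overlapping groups and an unadjusted p under 0.05, with differences from 0.85 to 2.31 and a median of 1.11. Ccnb1 encodes cyclin B1, the activating partner of Cdk1 at entry into mitosis. Its levels were -6.70, -6.45 and -6.00 on the sham and -4.29, -4.15 and -3.78 on the adrenalectomized arrays. Signals were 6.42, 7.35 and 14.5 intensity units in sham hearts, none of them well above background, and 39.3, 47.4 and 58.6 in adrenalectomized hearts, all well above it. The groups were far apart, but Ccnb1 was not detected in sham hearts. On the processed signal its adrenalectomized mean was 1.28-fold above the detection floor of the sham arrays. This floor is the lowest signal that counted as detected on each sham array, and the fold above it is called a bound here. It is not a strict limit, since some undetected probes lay above the floor. Ect2, for example, was undetected at -3.83 on sham replicate 2, where the floor was -4.15. The limma adjusted p of 0.0487 belongs to the fitted difference of 2.31 (SE 0.21), which uses the dim sham signals. Normexp background correction subtracts the local background of each spot and models what remains as signal plus noise. It was run with 50 units added to every corrected signal. After this correction the fitted difference turned to -0.87 (limma adjusted p = 0.0458). With the local background limited, and the same 50 units added, the difference was 0.17 (limma adjusted p = 0.609). Its probe was 1 of 3 for Ccnb1 and the only one that could be tested.

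Ccnb2, the second B-type cyclin of mitosis, was detected on every array. It measured -1.36, -1.48 and -1.55 in sham and -0.56, -0.60 and -0.45 in adrenalectomized hearts. The difference of 0.93 (SE 0.11) was 1.90-fold, and the groups lay well apart, with a limma adjusted p of 0.0587. Cdca3, a trigger of mitotic entry that promotes destruction of the Wee1 kinase, measured -3.16, -3.43 and -3.13 against -2.28, -1.91 and -1.99. Its difference was 1.18 (SE 0.14, limma adjusted p = 0.0652). A second Cdca3 probe differed by only 0.04 and was detected on 2 sham and 3 adrenalectomized arrays. The probe with the larger difference lies at mm7 chr6:124859606-124859665 and the other lies at chr6:124857753-124857812, and which exons they fall in was not analysed here.

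Ccna2 (cyclin A2) differed by 1.04 (SE 0.12) and Cdk1 itself by 1.20 (SE 0.21), with Cdk1 detected on 2 of the 3 sham arrays. Cks2, a small subunit of the cyclin-dependent kinases, differed by 0.85 and by 0.93 with its second probe. Cdc25c, the phosphatase that activates Cdk1, was not well above background on any array.

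The 3 mitotic kinase genes and the Aurora A activator Tpx2 all had non-overlapping groups and an unadjusted p under 0.05, with differences from 0.46 to 1.94. Nek2, a kinase that separates the centrosomes, measured -5.41, -5.82 and -5.57 in sham hearts, none well above background. It measured -4.03, -3.26 and -3.68 in adrenalectomized hearts, all well above it. On the processed signal the adrenalectomized mean of Nek2 was thus 1.70-fold above the sham detection floor. The fitted difference of Nek2 was 1.94 (SE 0.21, limma adjusted p = 0.0587). After normexp background correction its fitted difference turned to -0.78 (limma adjusted p = 0.0452). With the local background limited it was 0.23 (limma adjusted p = 0.511).

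Plk1, the polo-like kinase that acts from mitotic entry to cytokinesis, was measured with little spread. It stood at -2.44, -2.51 and -2.31 in sham and at -1.73, -1.73 and -1.55 in adrenalectomized hearts, a difference of 0.75 (SE 0.11) or 1.68-fold. Aurka, the centrosomal Aurora kinase, differed by 0.46 (SE 0.17), and sham replicate 2 reached almost into the adrenalectomized range. Tpx2, the spindle protein that activates Aurora A, differed by 1.12 (SE 0.21).

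The chromosomal passenger complex consists of Aurora B (Aurkb), Incenp, survivin (Birc5) and borealin (Cdca8), and corrects wrong attachments between kinetochores and microtubules. Aurkb was not well above background on any array. Birc5 measured -1.23, -1.03 and -1.15 in sham and -0.39, -0.49 and -0.04 in adrenalectomized hearts, a difference of 0.83 (SE 0.15). Cdca8 measured -1.66, -1.44 and -1.55 against -0.63, -0.43 and -0.28, a difference of 1.10 (SE 0.13, limma adjusted p = 0.0587). In both genes every adrenalectomized heart lay above every sham heart by more than the spread within either group. Incenp, the scaffold of the complex, differed by 0.31 (SE 0.15), with an unadjusted p over 0.05 although its groups did not overlap.

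In the spindle assembly checkpoint 2 of 4 genes could be tested. Bub1b (BubR1), which inhibits the anaphase-promoting complex, measured -3.88, -3.67 and -3.36 in sham and -2.37, -2.80 and -2.77 in adrenalectomized hearts. Its difference was 0.99 (SE 0.18), or 1.99-fold, with non-overlapping groups. Mad2l1 (Mad2), the checkpoint protein that binds Cdc20, measured -2.70, -2.79 and -2.93 against -2.53, -2.43 and -2.72. Its groups overlapped, and its difference of 0.24 (SE 0.12) was matched by 0.27 with a second probe. The checkpoint kinase Ttk was not well above background on any array, and the kinase Bub1 on 1 adrenalectomized array only, so no fold is given for either.

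The anaphase-promoting complex is switched on by Cdc20, works with the ubiquitin-conjugating enzyme Ube2c, and destroys securin (Pttg1). Cdc20 measured -0.42, -0.35 and -0.34 in sham and 0.11, 0.11 and 0.37 in adrenalectomized hearts, with a difference of 0.57 (SE 0.11). Ube2c measured -1.91, -1.98 and -1.67 against -0.87, -0.64 and -1.83. Adrenalectomized replicate 3 thus lay within the sham range, and the difference of 0.74 had an SE of 0.30.

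The securin gene Pttg1 was detected on every array. It measured 5.85, 5.94 and 5.69 in sham and 5.78, 5.74 and 5.75 in adrenalectomized hearts, with overlapping groups and a difference of -0.07 (SE 0.11).

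Kinetochore genes were less uniform. All 7 could be tested and had a higher value, 3 of them at an unadjusted p under 0.05, with differences from 0.05 to 1.17 and a median of 0.50. Nuf2, a subunit of the Ndc80 complex that grips microtubules, measured -3.20, -3.28 and -3.30 in sham and -2.45, -2.42 and -2.30 in adrenalectomized hearts. Its difference of 0.87 (SE 0.10) had a limma adjusted p of 0.0587. Spc25 of the same complex measured -3.91, -4.12 and -3.75 against -2.52, -2.75 and -3.00, a difference of 1.17 (SE 0.16). The other 2 subunits were more variable: Ndc80 differed by 0.48 (SE 0.21) without overlap, and Spc24 by 0.50 (SE 0.36) with adrenalectomized replicate 3 inside the sham range.

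Cenpe, a kinetochore motor that moves chromosomes to the spindle equator, differed by 0.90 (SE 0.20) with the only 1 of its 3 probes that could be tested. Its other probes differed by 0.09, with detection on 1 sham array only, and by -0.14, with detection on none. Cenpa, the histone variant that marks centromeres, differed by 0.05 (SE 0.11). Cenpf, a large kinetochore protein, measured 1.59, 2.31 and 1.33 in sham and 1.65, 1.61 and 2.38 in adrenalectomized hearts. Its groups overlapped, its difference was 0.14 (SE 0.31), and its second probe gave -0.08.

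Among the kinesin motors of the spindle and chromosomes, Kif4 (chromokinesin) and Kif22 (Kid, which pushes chromosome arms) had close replicates. Kif4 measured -2.76, -2.76 and -2.58 in sham and -2.07, -2.04 and -1.82 in adrenalectomized hearts, a difference of 0.72 (SE 0.12) that its second probe gave as 0.59. Kif22 measured -0.81, -0.95 and -1.09 against -0.29, -0.39 and -0.12, a difference of 0.69 (SE 0.12). Kif2c (MCAK, which depolymerizes microtubules) differed by 0.92 with an SE of 0.50 and overlapping groups, and by 2.02 within slide 1, since adrenalectomized replicate 1 was far above replicates 2 and 3. Kif11 (Eg5, which pushes the spindle poles apart) was dim in all sham hearts. Its brightest probe measured -2.69, -5.09 and -4.49 in adrenalectomized hearts and was well above background in replicates 1 and 3. The bound on its mean was 1.26-fold, was carried by replicate 1 and was not tested. The other Kif11 probes differed by 0.23, with detection on 1 adrenalectomized array, and by -0.32, with detection on none.

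All 6 cytokinesis genes had a higher value, 5 of them with non-overlapping groups and an unadjusted p under 0.05. Prc1, which bundles microtubules of the central spindle, measured -1.35, -1.53 and -1.47 in sham and -0.49, -0.73 and -0.27 in adrenalectomized hearts, a difference of 0.96 (SE 0.14). Kif20a (Mklp2), a kinesin of the central spindle, measured -0.92, -1.01 and -0.97 against -0.26, -0.22 and -0.21. This was among the tightest differences, 0.74 (SE 0.09), and its second probe gave 0.62.

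Ect2, which activates RhoA at the cleavage furrow, differed by 0.90 (SE 0.22), and Racgap1 by 0.75 (SE 0.19). Racgap1 and Kif23 (Mklp1) form the centralspindlin complex, and Kif23 differed by 0.46 (SE 0.14) and by 0.75 with a second probe. Ect2 and Racgap1 were each detected on 1 sham array and all 3 adrenalectomized arrays. Anln (anillin, a scaffold of the contractile ring) differed by 0.60 with an SE of 0.74, as sham replicate 1 stood at -6.28 and the other 2 sham arrays at -3.06 and -4.11.

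**Figure D3:**
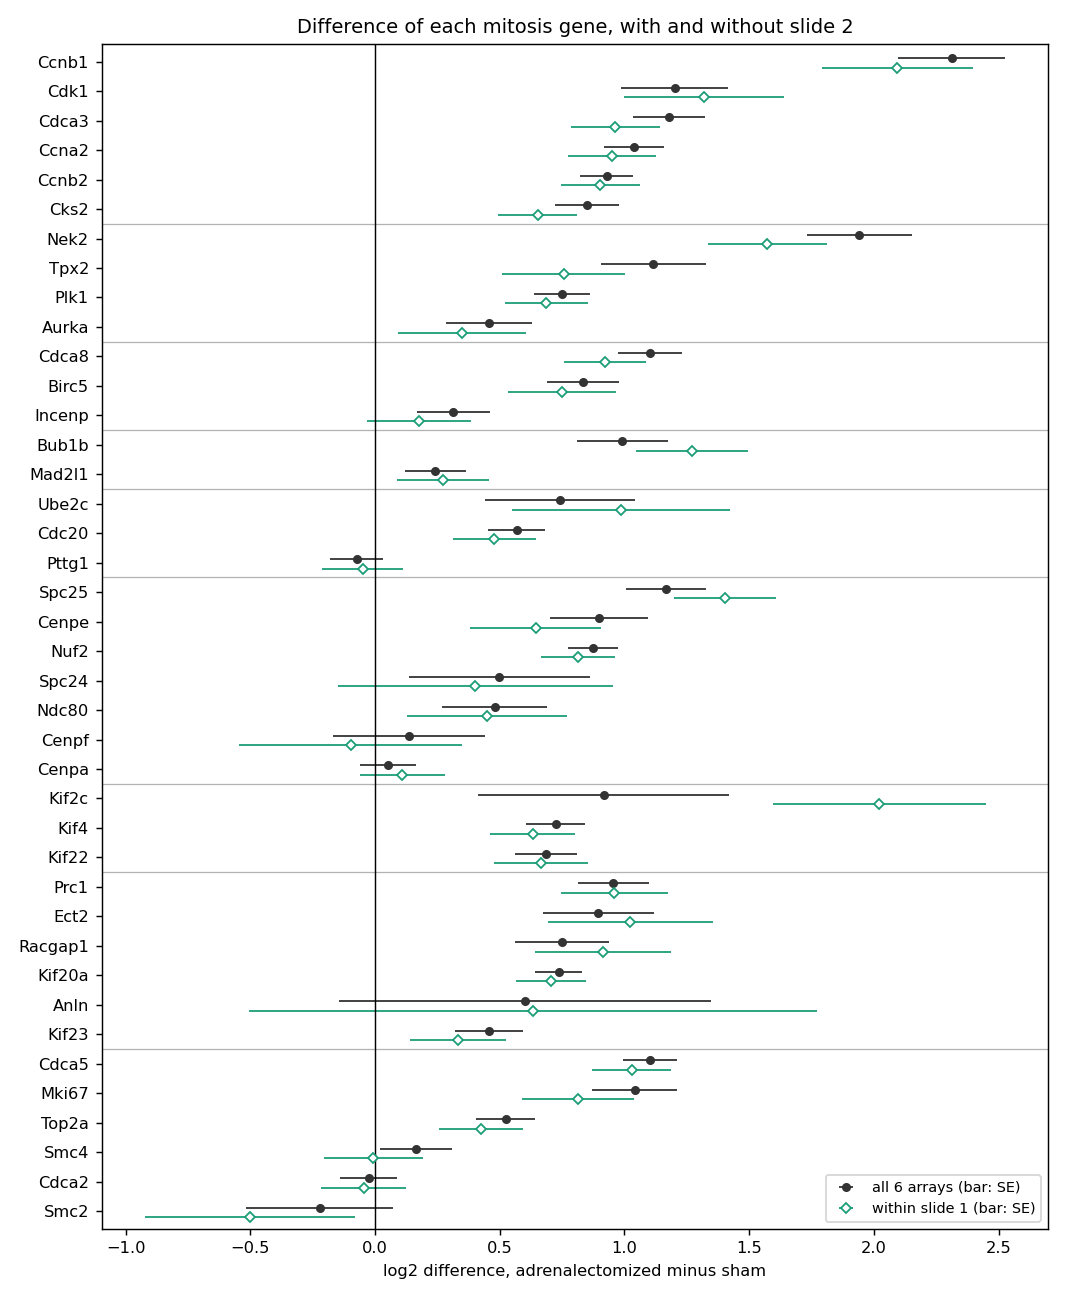
Difference of each tested mitosis gene (x axis, log2 adrenalectomized minus sham; y axis, genes grouped by role), as filled circles over all 6 arrays and as open diamonds with slide as a block, which gives the difference within slide 1 and its 1 adrenalectomized array; bars are standard errors. Both values lie above 0 for most genes, and Kif2c moves from 0.92 to 2.02 within slide 1.

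Of the 6 genes of chromosome structure and cohesion, 3 had non-overlapping groups and an unadjusted p under 0.05. Cdca5 (sororin, which protects cohesion between sister chromatids) measured -2.62, -2.82 and -2.79 in sham and -1.71, -1.62 and -1.59 in adrenalectomized hearts. It rose by 1.10 (SE 0.11), or 2.15-fold, with a limma adjusted p of 0.0487 over all 6 arrays. With slide as a block the difference was 1.03 and the limma adjusted p 0.204, and on slide 1 alone the adjusted p was 0.280. Normexp background correction gave a difference of 0.00019 (limma adjusted p = 0.999), and the mean of the probes gave 0.69 (limma adjusted p = 0.337). A second Cdca5 probe, detected on 1 sham and 3 adrenalectomized arrays, differed by 0.27.

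Mki67 encodes Ki-67, the coat protein of mitotic chromosomes that is widely used as a marker of cycling cells. It measured -0.88, -0.64 and -0.77 in sham and 0.05, 0.15 and 0.63 in adrenalectomized hearts. The groups lay apart, the difference was 1.04 (SE 0.17) or 2.06-fold, and a second probe gave 0.83. Top2a, the topoisomerase that untangles chromosomes, differed by 0.52 (SE 0.12).

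The other 3 had overlapping groups, among them the condensin ATPases Smc2 and Smc4. Smc2 measured -2.84, -3.17 and -3.96 in sham and -3.83, -3.24 and -3.56 in adrenalectomized hearts, a difference of -0.22 (SE 0.30), and 0.17 with a second probe. Smc4 measured 1.16, 1.23 and 0.87 against 1.08, 1.24 and 1.43, a difference of 0.16 (SE 0.15), and -0.19 with a second probe. Cdca2 (Repo-Man, a phosphatase subunit of anaphase chromosomes) measured -0.53, -0.25 and -0.50 against -0.47, -0.43 and -0.46, a difference of -0.03 (SE 0.11).

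Among the members, 5 lay above the 75th percentile of every array, namely Pttg1, Cenpf, Smc4, Incenp and Cenpa, and their differences ran from -0.07 to 0.31. They held neither a difference as large as the median member nor an unadjusted p under 0.05. These are levels of single probes within an array, and levels of different probes are not compared.

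Tested probes of the same gene mostly pointed the same way. Of the 23 members with several probes, 12 had 2 that could be tested, and both had the same sign in 8. They differed in sign in Cdca2, Cenpf, Smc2 and Smc4. The gap was over 1 in Cdca2 and Cdca3. The second Cdca2 probe gave 1.27 through sham replicate 1, which stood at -6.30 where the other sham arrays stood at -2.84 and -3.22. In the remaining members with several probes no more than 1 could be tested. Their untested probes went both ways, such as -0.63 in Racgap1 and 0.92 in Ccnb1.

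**Figure D4:**
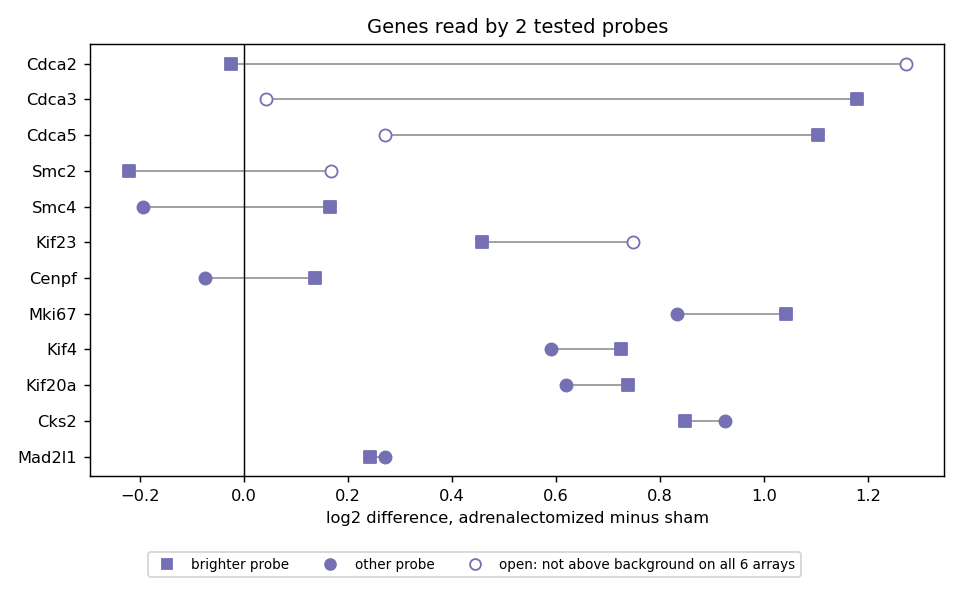
Differences given by both tested probes of 12 mitosis genes (x axis, log2 adrenalectomized minus sham; y axis, genes by the gap between their probes). Squares are the brighter probe, circles the other, and open symbols probes not well above background on all 6 arrays; the widest gaps, in Cdca2, Cdca3 and Cdca5, each involve an open symbol.

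Other mitosis genes, from lists that do not hold the members, had a smaller median difference. Of 109 such genes 105 were on the array and 90 could be tested, of which 64 had a higher value, where 56.6% of all genes did. At an unadjusted limma p under 0.05, 18 were higher and 3 lower, where 6.27% and 5.99% of all genes were. The limma adjusted threshold was passed by 0 of these other mitosis genes. Their median difference was 0.15. Groups did not overlap in 26 of them with the adrenalectomized hearts higher and in 2 with them lower, where 10.3% and 7.89% of all genes did not.

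Among regulators of mitotic entry and exit, Foxm1, the transcription factor of G2 and M genes, differed by 0.80 (SE 0.15, limma adjusted p = 0.177), and the phosphatase gene Cdc25a by -0.34 (SE 0.11, limma adjusted p = 0.328). In 14 other spindle genes the median was 0.42, with Spag5 (astrin) at 1.35 and the kinase gene Pbk at 1.37, both at a limma adjusted p of 0.162. In 25 other kinetochore and checkpoint genes it was 0.22, and Kntc1 (Rod) differed by 0.64 (SE 0.12). Cenpn, detected in no sham heart, had a bound of 1.24-fold, adrenalectomized over sham.

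Subunits of the anaphase-promoting complex, its inhibitors and separase had a median of 0.07 over 15 genes and 0 at an unadjusted p under 0.05, with separase (Espl1) at 0.27 and Anapc7 at 0.15. Cohesin and condensin subunits had a median of 0.10 over 11 genes, with the condensin gene Ncaph at 0.56 (SE 0.11) and the cohesin gene Stag2 at 0.21. Other cytokinesis genes had a median of -0.01 over 11 genes, with Pdcd6ip (Alix) at -0.32 and Rock1 at -0.68.

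Markers of other cell types were measured beside the members, and their part in the result was not tested. Markers of T cells had a median difference of 0.36 over 6 tested of 9, with summed levels of 0.574 to 0.810 in sham and 0.744 to 1.17 in adrenalectomized hearts, in multiples of the 75th percentile. The 2 of smallest p were Dntt at 0.86 and Cd3g at 0.33, and Rag1 and Ptcra were well above background on no array. Markers of B cells had a median of 0.77 over 5 of 7, with summed levels of 1.14 to 2.13 against 1.62 to 4.24, led by Cd22 at 0.86 and Cd79b at 0.78. Within slide 1, which holds 1 adrenalectomized heart, these medians were 0.26 and 0.06.

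Adipocyte markers had a median of 1.37 over 8 of 9, with summed levels of 334 to 466 against 405 to 753. Ucp1 differed by 2.88 and Plin1 by 1.79, and the median within slide 1 was 0.20. Epithelial markers had a median of 0.53 over 6 of 8 and 0.05 within slide 1. Krt5 stood at 1.27, and Epcam, detected in no sham heart, had a bound of 1.65-fold, adrenalectomized over sham. Their summed levels were 4.82 to 5.46 against 4.44 to 10.5.

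Erythroid markers had a median of 0.28 over 5 of 8 and 0.73 within slide 1. Their summed levels were 962 to 1334 in sham hearts, 1708 and 1719 in adrenalectomized replicates 1 and 2 and 758 in replicate 3. Adrenalectomized replicate 3 thus had the lowest summed level of these markers. Any relation of this level to the mitosis genes was not tested. Klf1 was well above background on no array.

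Medians of the other marker lists were between -0.23 and -0.03. They were -0.16 for cardiomyocytes, with summed levels of 3754 to 4513 against 3594 to 3875, and -0.20 for endothelium, with 88.8 to 95.8 against 66.5 to 79.3. Fibroblast markers had a median of -0.22, with 212 to 260 against 180 to 205, and macrophage markers -0.07, with 96.3 to 116 against 104 to 123. Smooth muscle markers had a median of -0.03, with 135 to 203 against 138 to 174. Neutrophil markers had -0.23 over 3 of 8, with 0.908 to 1.61 against 0.907 to 4.51, and Elane and Retnlg were well above background on no array.

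The median of the members depended on the background correction. Both normexp settings also added 50 units to every corrected signal, and the effect of this addition was not tested separately. Normexp correction with the local background of each spot gave a median of -0.06 over the members, with 6 called higher and 10 lower, where 7.20% of all genes were called higher and 27.9% lower. On sham replicates 1 and 3, 8 and 9 spots had a local background more than 10 times the array's median, and the 10th percentile of corrected signals was 423, 155 and 554 on the sham and 148, 74.6 and 82.1 on the adrenalectomized arrays. With the local background limited to 2 times the array's median, a setting chosen after seeing the data, the median was 0.28 and 34 of 40 members were higher, with 0 called.

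**Figure D5:**
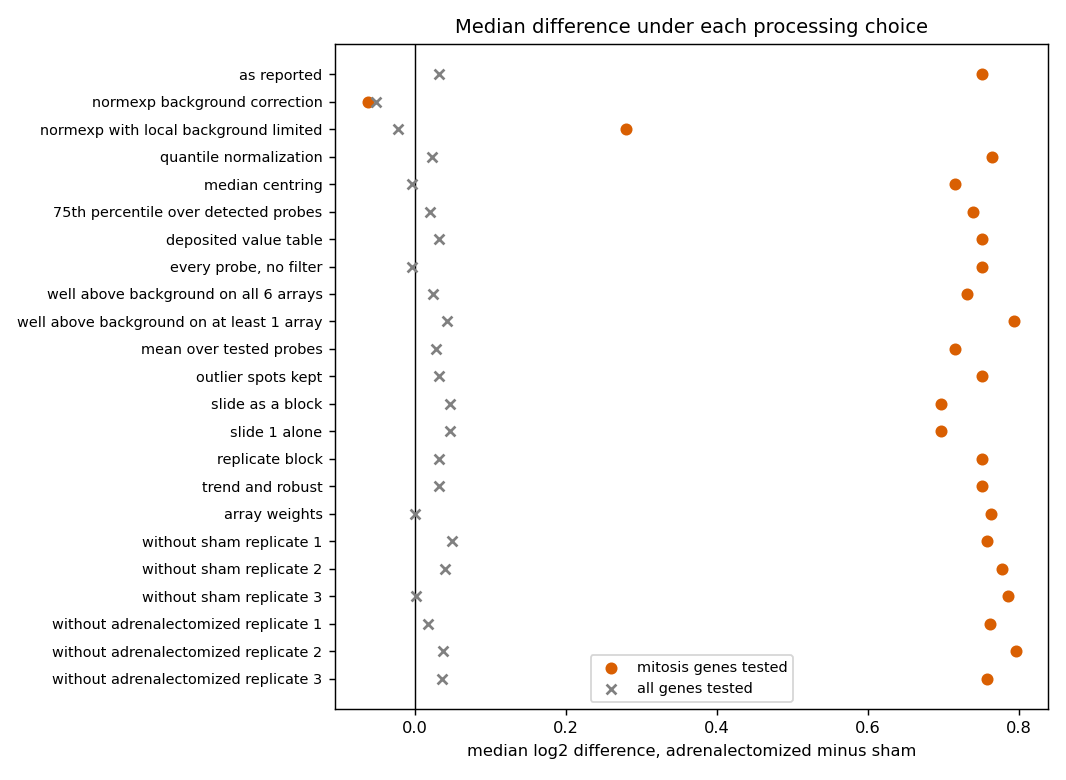
Median log2 difference, adrenalectomized minus sham (x axis), over the tested mitosis genes (orange circles) and over all genes tested (grey crosses) under each processing choice (y axis). Medians of the mitosis genes lie between 0.70 and 0.80 under all choices but the 2 with normexp, at -0.06 and 0.28.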

How the data were processed

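Per the labels' protocols, 5 µg of cDNA amplified from 50 ng of RNA was labelled with Cy3. Scans were read with Agilent Feature Extraction 9.5, per the submitters' processing notes. In the deposited files the processed signal is a linear intensity, background-subtracted and detrended within each array but not normalized between arrays, per the file headers. For all 45018 spots of each array the deposited value table gave an equal intensity (to 1e-06 of the value), with column medians of 68.1 to 84.4 for sham and 75.1 to 92.2 for adrenalectomized hearts, so its scale is linear and not centred.

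Log2 signals minus the 75th percentile of each array were used, without control and outlier spots (80 to 133 per array), and averaged over a probe's repeat spots. Of 41174 probes, 22951 were named by RefSeq accession and the rest by the file. Probes well above background on all 3 arrays of a group were tested, and the brightest tested probe stood for its gene (16948 genes). For a group with no array well above background the fold is a bound on the processed signal. The bound uses the lowest detected signal of each array of that group, or the probe's own signal where higher. It is not a strict limit, and normexp correction gave lower values for Ccnb1 and Nek2. Differences were fitted with limma 3.58.1 in R 4.3.3 and adjusted by Benjamini-Hochberg over all genes at 0.05. The procedure was tested on simulated data with independent noise for each gene and array, without a slide effect or a detection limit. Arrays correlated at a Pearson r of at least 0.982 across genes, and the median SE of a difference was 0.14, which the number of arrays limits.

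The members, gene lists and tests were chosen with earlier results of these data known. Values on every array are given for members past the threshold, the 2 of smallest p in each role, members whose probes differ in sign or by over 1, and those of highest and lowest level, and for other lists the 2 of smallest p. Members without a RefSeq window were left out of the promoter counts. Alternatives were other background corrections, scalings, filters and probe rules, slide and replicate blocks, slide 1 alone, a variance trend, array weights and each array left out, always with the same genes tested unless the filter itself was changed. Python 3.11.15 with pandas 2.3.3 and matplotlib 3.10.9 was used for tables and figures.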

Additional observations from a re-analysis of the deposited data

How the results depend on the processing

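The median over the tested members was 0.70 to 0.80 under all alternatives except normexp, but the number of members past the adjusted threshold was not stable. Under normexp on the local background, 6 members and 1220 genes were called higher and 10 members and 4730 genes lower, the members' median was -0.063, 18 had a higher value and 8 did not overlap upward. Fitted differences then changed sign in 21 of the 40 tested members, 20 of them to a lower value, with Anln at -1.15 the lowest. Among the members with values on every array they were Bub1b (-0.58), Ccnb1 (-0.87), Cdca3 (-0.34), Kif4 (-0.33), Mad2l1 (-0.68), Nek2 (-0.78), Nuf2 (-0.51), Plk1 (-0.27), Pttg1 (0.27) and Spc25 (-0.66). With the local background limited, which was added after seeing the data, 0 members were called higher, 0 genes were called either way, the median was 0.28, groups of 18 members did not overlap upward, and Mad2l1 stood at -0.044. The cause of these changes was not tested. The share of all genes without overlap under these settings is not given, so the non-overlap counts of 8 and 18 lack a baseline.

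Members called higher were 1 after quantile normalization, 4 with a variance trend and robust estimation, and 23 with array weights. They were 0 with a 75th percentile over detected probes, every probe, probes above background on all 6 arrays or on at least 1, the mean of the probes, outlier spots kept, slide as a block, and slide 1 alone. Over all genes these 8 settings called 0 genes higher, and 1 lower with every probe, either filter, the slide block and slide 1 alone. Quantile normalization called 2 genes higher, median centring 3 higher and 4 lower, the trend 7 lower, and array weights 119 higher and 170 lower. With each array left out in turn, 0 members and 0 to 8 genes were called higher and 1 to 2 genes lower.

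The mean of the probes moved Cdca2 to 0.62 and Smc4 to -0.015. The slide block and slide 1 alone gave -0.10 for Cenpf and -0.0069 for Smc4, and array weights gave 0.041 for Cdca2. With 1 array left out, Smc2 ran from -0.54 to 0.020 (without sham replicate 1), Cdca2 from -0.076 to 0.060 (without sham replicate 2) and Cenpf from -0.12 (without adrenalectomized replicate 3) to 0.42, with -0.071 without sham replicate 3. Without sham replicate 3, 1 member was lower at an unadjusted p under 0.05, and under normexp Smc2 was called lower at -1.01 (limma adjusted p = 0.0241).

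Samples of the same replicate number share only a number: deviations from the group means correlated at 0.16, 0.16 and -0.16 for replicates 1, 2 and 3. The replicate block left 0 members and 0 genes called higher and 1 gene lower, with a members' median of 0.75.

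Searched on the forward strand alone, the CHR core was in 55.6% of members, against 11.6% of all genes with a window. A CCAAT box was in 58.3% against 23.7%, and either CHR form in 58.3% against 13.2%. Within 50 bases of the start, a range added later, a CCAAT box was in 52.8% of members against 15.6% of all genes. An E2F site was there in 0.0% against 0.955%.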
